A study of Mus musculus with 21 samples.

Results

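A set of 10 genes that mark macrophages or are strongly expressed by them were followed through the mammary tumours of MMTV-PyMT mice. The genes were given as a list and found by symbol in the deposited tables, where 10 of 10 were among the 19241 genes listed for tumours. By role they were the pan-macrophage genes Adgre1, Csf1r and Cd68, the scavenger receptors Mrc1 and Cd163, the complement genes C1qa, C1qb and C1qc, and the lipid-handling genes Apoe and Trem2. The tumours came from 4 groups of 3 libraries, part of a series of 21. Sedentary and physically active mice were each sampled at week 12 and at week 18, and every mouse, the sedentary controls included, carried the MMTV-PyMT transgene, in which the mouse mammary tumour virus promoter drives the polyoma middle T oncogene in mammary epithelium. The strain background, sex, form of the activity and starting point of the week count are not given in the sources used here, nor is it said whether a library holds 1 tumour or several. The labels call the libraries biological replicates, and p-values set a difference between groups against the spread between libraries. Below, each library is called a tumour.

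Macrophages enter tumours from blood monocytes or descend from macrophages already resident in the tissue, and signalling through the CSF1 receptor keeps them alive. In mammary tumours of this model they are a prominent part of the immune infiltrate. Different states share the pan-macrophage genes but differ in others: CD163 and the mannose receptor are typical of resident and vessel-associated macrophages, whereas TREM2 and apolipoprotein E are typical of macrophages that take up lipid. The C1q chains are made mainly by macrophages in most tissues and form the recognition part of the first complement component. Apolipoprotein E is also made by cells other than macrophages.

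The 3 C1q genes lie side by side on the minus strand of chromosome 4, within 18675 bases, and their values stayed closer to each other than those of any other pair of the 10 genes. Mrc1 and Cd163 were both lowest of their group in replicate 1 of each week 18 group, and Cd163 had the widest pooled spread of the 10. The bases that precede the start of these genes are therefore shown, from RefSeq (GRCm38.p6), 5′ to 3′ on the gene's strand, cut where the RefSeq or the GENCODE M21 start is reached. Capitals mark AGGAAG or its reverse complement CTTCCT, a longer string that holds GGAA, the core bound by PU.1 and related ETS factors. The stretches are chr4:136886201-136886450 (minus strand) for C1qb, chr4:136893066-136893164 (minus strand) for C1qc, chr6:124304401-124304650 (plus strand) for Cd163 and chr2:14229164-14229391 (plus strand) for Mrc1.
C1qb: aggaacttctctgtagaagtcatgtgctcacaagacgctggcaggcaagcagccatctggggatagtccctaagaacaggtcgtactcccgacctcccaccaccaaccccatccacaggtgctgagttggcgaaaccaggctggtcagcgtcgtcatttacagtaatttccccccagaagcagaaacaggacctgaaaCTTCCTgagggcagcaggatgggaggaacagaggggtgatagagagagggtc
C1qc: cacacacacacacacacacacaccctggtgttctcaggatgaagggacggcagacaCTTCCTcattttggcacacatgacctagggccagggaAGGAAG
Cd163: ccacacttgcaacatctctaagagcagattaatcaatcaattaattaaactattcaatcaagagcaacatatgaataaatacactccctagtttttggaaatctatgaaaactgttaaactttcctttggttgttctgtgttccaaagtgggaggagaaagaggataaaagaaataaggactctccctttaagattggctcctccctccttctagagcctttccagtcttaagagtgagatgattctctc
Mrc1: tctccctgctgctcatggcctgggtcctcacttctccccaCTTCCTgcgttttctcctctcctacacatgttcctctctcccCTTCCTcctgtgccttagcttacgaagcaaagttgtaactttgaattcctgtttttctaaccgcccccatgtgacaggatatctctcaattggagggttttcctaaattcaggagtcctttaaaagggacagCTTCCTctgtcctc
In the whole windows of 300 bases that the table gives for each start, the C1qb, C1qc and Mrc1 promoters held 2, 2 and 3 matches on either strand. The Cd163 window held 0, which says only that these letters are not in it. The shorter core GGAA and its reverse complement TTCC do occur in the Cd163 stretch shown, and were not counted for any gene. Of all 32851 windows of the table, 35.4% held at least 1 match. The table matched 7 of the 10 genes. The others are Adgre1, Csf1r and C1qa.

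Tumour libraries held 20838963 to 28973775 reads. The lowest count of any of the 10 genes in any library was 46 reads, for Trem2, so all passed the filter on low values. Active week 12 replicate 3 stood apart in its other cell types: 9 T cell markers summed to 12912 normalized counts there and to 192 to 423 in the other tumours, and 8 B cell markers to 26817 there and to 59.5 to 207 elsewhere. Its 7 adipocyte markers summed to 232367, against 403 to 57451 elsewhere. Sedentary week 12 tumours held the most skeletal muscle RNA, with 10 markers summing to 53094 to 114332 normalized counts, against 359 to 1270 in active week 12 tumours, and 9 of the 10 passed as lower in active tumours at that week. No marker of these lists was at 0 reads in all libraries of a group. The 7 epithelial markers, which stand for the labelled tissue, summed to 56377 to 136426. In bulk tissue, fewer macrophages and less of a transcript per macrophage cannot be told apart.

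None of the 10 genes passed the threshold in any comparison. In active against sedentary tumours the count was 0 of 10 at week 12, where 0.517% of all genes passed, and 0 of 10 at week 18, where 0% passed. The activity effect differed between weeks for 0 of 10, with 0.0104% of all genes passing. Week 18 against week 12 gave 0 of 10 in sedentary tumours (0.00526% of all genes) and 0 of 10 in active tumours (0.0156%). The test was limma on log2(normalized count + 1) with Benjamini-Hochberg adjustment over all genes and a threshold of 0.05. At an unadjusted p under 0.05 the counts were again 0 of the 10 genes for activity at week 12 and week 18, where 4.09% and 5.97% of all genes were under it, 0 for the interaction (6.33%) and 0 between weeks in sedentary tumours (3.72%). Between weeks in active tumours 1 of the 10, Cd163, was under it, as were 17.8% of all genes. At week 18 same-numbered libraries deviated together weakly. Limma with the replicate number as a block put 1 of the 10, Cd163, at an unadjusted p under 0.05 there. It did the same for 7.41% of all genes. DESeq2 called 52 genes at week 18, none of them among the 10. The values of each gene in each library follow.

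**Figure D1:**
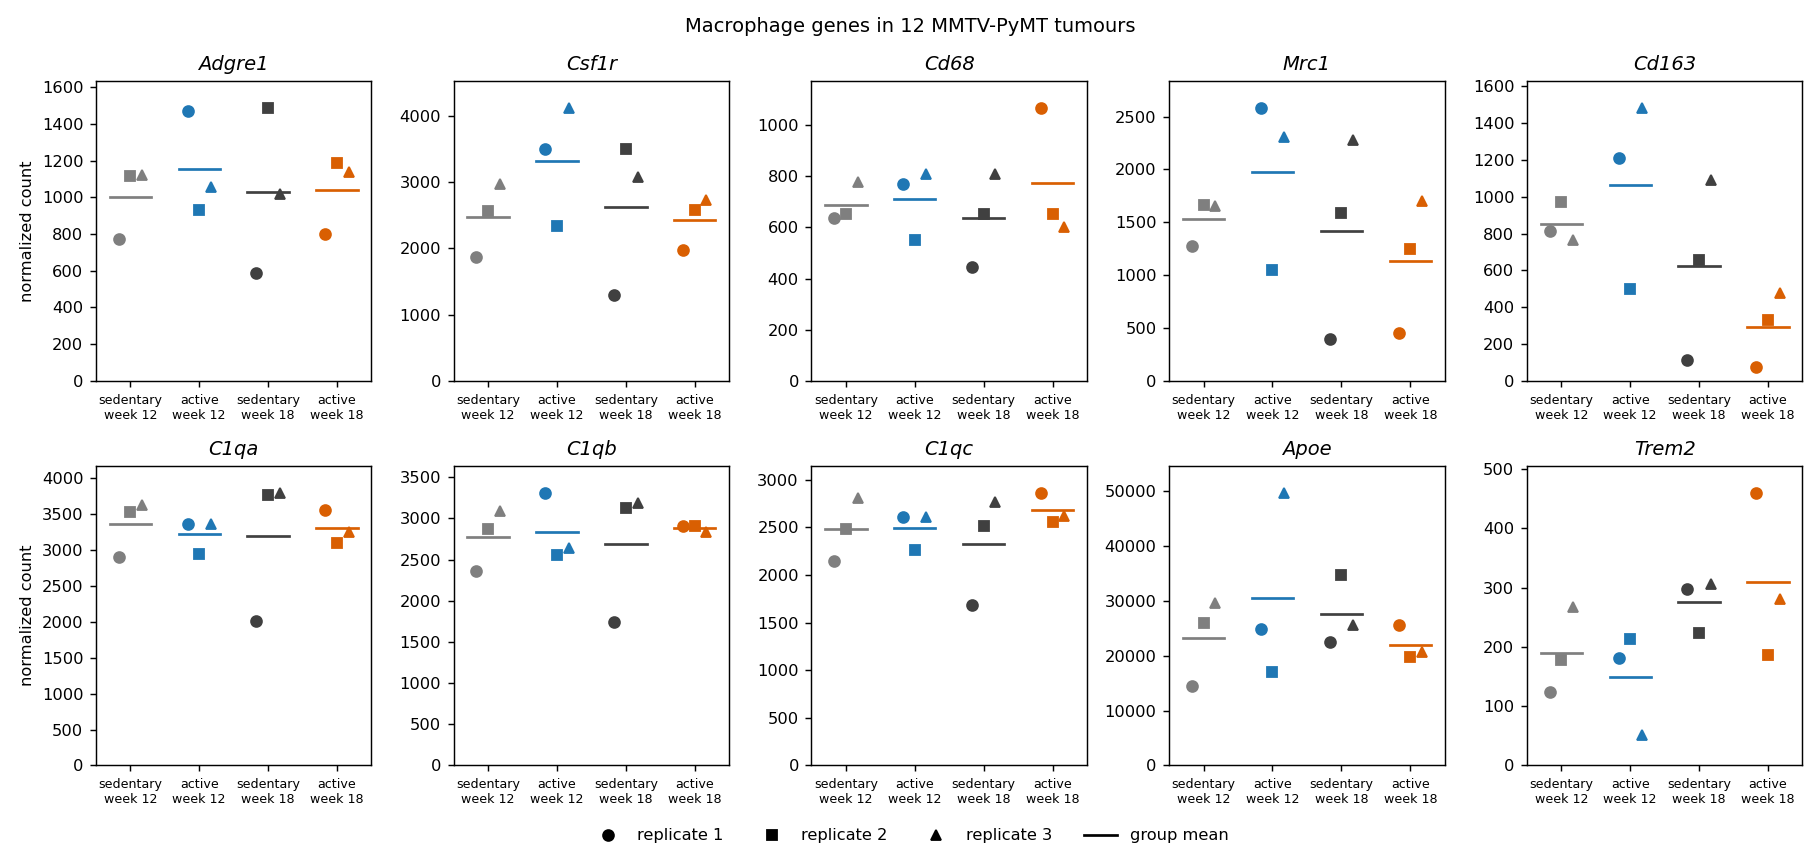
Normalized counts of the 10 macrophage genes (y axis, linear, from 0) in 12 tumours, by group (x axis); point shape gives the replicate number and the bar is the group mean. Sedentary week 18 replicate 1 was the lowest tumour for 7 of the 10 genes, and the active week 18 tumours held 77 to 475 counts of Cd163, all below the active week 12 tumours.

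Adgre1 (chromosome 17, 57358691 to 57483527, plus strand, GRCm38) encodes F4/80, the surface receptor by which mouse macrophages are usually recognised. Its normalized counts were 773, 1116 and 1122 in sedentary week 12 tumours and 1471, 928 and 1057 in active ones, then 590, 1484 and 1018 in sedentary week 18 tumours and 798, 1186 and 1140 in active ones. The ranges of all 4 groups overlapped. Active over sedentary, the log2 fold change was 0.19 ± 0.26 (SE) at week 12 and 0.09 ± 0.39 at week 18, with adjusted p = 0.970 and 0.964 in limma.

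Csf1r (chromosome 18, 61100598 to 61132149, plus strand), the receptor for CSF1 and IL-34, gave 1868, 2560 and 2975 normalized counts in sedentary week 12 tumours, against 3509, 2343 and 4117 in active ones. At week 18 the counts were 1291, 3509 and 3077 in sedentary and 1979, 2580 and 2729 in active tumours. Active week 12 thus had the highest mean, 3323 ± 902 (SD, n = 3) against 2468 ± 559 (SD, n = 3), but its lowest tumour lay below 2 of the sedentary ones. The fold was 1.33 at week 12, with a 95% interval of 0.797 to 2.24, and 1.00 at week 18, with an interval of 0.479 to 2.09. Without active week 12 replicate 3, the log2 fold change at week 12 went from 0.42 to 0.24.

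Cd68 (chromosome 11, 69664213 to 69666153, minus strand), a lysosomal membrane glycoprotein of phagocytes, gave 637, 654 and 778 normalized counts in sedentary and 771, 551 and 808 in active tumours of week 12. It gave 445, 654 and 811 in sedentary and 1066, 654 and 603 in active tumours of week 18. Active week 18 replicate 1 was the highest of all tumours for Cd68, while it was below the other active week 18 tumours for Adgre1 and Csf1r. The log2 fold change was 0.03 ± 0.21 (SE) at week 12 and 0.28 ± 0.33 at week 18.

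The scavenger receptors had a wide spread at week 18. Mrc1 (chromosome 2, 14229392 to 14332057, plus strand), the mannose receptor CD206 that takes up glycoproteins, gave 1274, 1667 and 1654 normalized counts in sedentary week 12 tumours and 2578, 1050 and 2311 in active ones. At week 18 it gave 400, 1589 and 2275 in sedentary and 457, 1249 and 1700 in active tumours. In each week 18 group replicate 1 was the low tumour, and the groups overlapped. Active over sedentary, its log2 fold change was 0.28 ± 0.39 (SE) at week 12 and -0.19 ± 0.82 at week 18.

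Cd163 (chromosome 6, 124304656 to 124330527, plus strand), the receptor for haemoglobin bound to haptoglobin, gave 812, 974 and 764 normalized counts in sedentary and 1209, 498 and 1481 in active tumours of week 12. It gave 115, 659 and 1090 in sedentary and 77, 331 and 475 in active tumours of week 18. The active week 18 tumours all lay below the active week 12 tumours, while the sedentary groups overlapped. Within week 18 the active and sedentary ranges overlapped. Non-overlap from week 12 to week 18 in active tumours, in the lower direction, was met by 1 of the 10 genes, and by 12.7% of all genes in this comparison.

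Active over sedentary, the log2 fold change of Cd163 was 0.19 ± 0.44 (SE) at week 12 and -0.92 ± 1.08 at week 18. The week 18 fold was 0.529, with a 95% interval of 0.0810 to 3.45 and an adjusted p of 0.861 in limma. The authors' deposited table gave a log2 fold change of -1.08 at that week. The week 18 estimate went to -1.88 without sedentary week 18 replicate 1 and to -0.14 without active week 18 replicate 1. Matched by replicate number at week 18, Cd163 was lower in the active tumour in 3 of 3 cases. The labels do not say that these numbers pair the samples, and the share of all genes with such an order was not counted. With these numbers as a block in limma the estimate was -0.92 ± 0.21 (SE), with an unadjusted p of 0.0147. The adjusted p was 0.586, so Cd163 did not pass. With this block 7.41% of all genes had an unadjusted p under 0.05.

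Between weeks in active tumours, Cd163 stood at 0.240 of its week 12 level, with a 95% interval of 0.0606 to 0.950 and a log2 fold change of -2.06 ± 0.89 (SE). Its unadjusted p was 0.0435 and its adjusted p 0.271 in limma, so it did not pass. The estimate was -1.28 without active week 18 replicate 1 (adjusted p = 0.524) and -1.75 without active week 12 replicate 3 (adjusted p = 0.541). Adjusted p ran from 0.0895 with DESeq2 to 0.541 over the alternatives. In sedentary tumours the same contrast was -0.95 ± 0.88, and 0.00 without sedentary week 18 replicate 1. The interaction term, which sets the activity effect of week 18 against that of week 12, was -1.11 ± 1.25 for Cd163 (adjusted p = 0.822).

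In 3 of the 4 groups the tumour with the least Cd163 also had the lowest adipocyte and the lowest fibroblast sum of its group: active week 12 replicate 2 and replicate 1 of each week 18 group. In sedentary week 12 tumours it did not, with the least Cd163 in replicate 3, the lowest adipocyte sum in replicate 2 and the lowest fibroblast sum in replicate 1. The 7 adipocyte markers summed to 9940 to 232367 normalized counts in active week 12 tumours and to 403 to 3106 in active week 18 tumours. All 7 were lower at week 18 without overlap between these groups, as were 12.7% of all genes. In sedentary tumours the adipocyte sums were 18052 to 26065 at week 12 and 724 to 17229 at week 18. The 6 fibroblast markers summed to 51314 to 101094 in active week 12 tumours and to 12291 to 57467 in active week 18 tumours, and in sedentary ones to 43912 to 95706 and 29999 to 79322.

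Markers of other cell types were set beside these values in the same active groups. Over all genes, 24.9% had groups without overlap in this comparison, 12.7% being lower at week 18. The 6 endothelial markers summed to 3977 to 15462 normalized counts at week 12 and to 2335 to 2847 at week 18. Of them 6 of 6 estimates were below 0, with a median log2 fold change of -1.59, and 4 had no overlap. The 9 T cell markers had 9 of 9 below 0 with a median of -2.43. They summed to 384, 357 and 12912 in active week 12 replicates 1, 2 and 3, and to 280 to 421 at week 18. The 8 B cell markers had 8 of 8 below 0 with a median of -3.45. They summed to 154, 93.8 and 26817 in the same week 12 replicates, and to 94.4 to 170 at week 18. For both lists the high week 12 sum was that of replicate 3 alone. Of the 7 epithelial markers 6 were above 0, with a median of 0.57 and 4 without overlap, and they summed to 56377 to 99103 at week 12 and to 107798 to 116356 at week 18. None of the adipocyte, fibroblast, endothelial, lymphocyte or epithelial markers passed the threshold in this comparison. Their part in the Cd163 values was not tested.

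The complement genes were the most even. C1qa (chromosome 4, 136895917 to 136898803, minus strand) gave 2905, 3538 and 3636 normalized counts in sedentary and 3361, 2949 and 3360 in active week 12 tumours, then 2011, 3767 and 3800 in sedentary and 3564, 3106 and 3257 in active week 18 tumours. Apart from sedentary week 18 replicate 1, at 2011, all tumours lay within 2905 to 3800. The fold of active over sedentary was 0.962 at week 12, with a 95% interval of 0.723 to 1.28, and 1.08 at week 18, with an interval of 0.647 to 1.80.

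C1qb (chromosome 4, 136880129 to 136886187, minus strand) gave 2359, 2878 and 3095 in sedentary and 3312, 2556 and 2637 in active week 12 tumours, then 1742, 3127 and 3193 in sedentary and 2908, 2904 and 2841 in active week 18 tumours. C1qc (chromosome 4, 136889804 to 136893065, minus strand) gave 2148, 2478 and 2812 in sedentary and 2607, 2261 and 2611 in active week 12 tumours, then 1682, 2519 and 2766 in sedentary and 2862, 2557 and 2614 in active week 18 tumours. The same sedentary week 18 tumour was the lowest for all 3 chains. At week 12 the fold was 1.02 for C1qb (0.732 to 1.42) and 1.01 for C1qc (0.750 to 1.36), with the 95% intervals in parentheses. At week 18 the intervals were wider, 0.689 to 1.80 for C1qb and 0.786 to 1.76 for C1qc. Without sedentary week 18 replicate 1, the week 18 log2 fold change of C1qa went from 0.11 to -0.20.

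Apoe (chromosome 7, 19696109 to 19699188, minus strand), which carries lipid out of cells, was the most abundant of the 10 and ranked 62 by mean among all genes. Its normalized counts were 14441, 25936 and 29506 in sedentary and 24867, 17086 and 49660 in active week 12 tumours, then 22408, 34681 and 25654 in sedentary and 25565, 19661 and 20591 in active week 18 tumours. Active week 12 replicate 3 was the highest and sedentary week 12 replicate 1 the lowest. The log2 fold change was 0.31 ± 0.49 (SE) at week 12, and -0.11 without active week 12 replicate 3. At week 18 it was -0.32 ± 0.23, the smallest unadjusted p of the 10 genes at that week (0.222, adjusted 0.824, limma).

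Trem2 (chromosome 17, 48346401 to 48354147, plus strand), a lipid receptor that signals through the adaptor TYROBP, was the least abundant in counts. It gave 124, 178 and 267 in sedentary and 181, 213 and 51.3 in active week 12 tumours, then 298, 224 and 306 in sedentary and 460, 186 and 281 in active week 18 tumours. The lowest value was that of active week 12 replicate 3, the tumour with the most Apoe, Csf1r and Cd163. Between weeks in active tumours Trem2 was 2.28-fold higher at week 18, with a 95% interval of 0.981 to 5.31 and an adjusted p of 0.285 in limma, and the groups overlapped. Without active week 12 replicate 3 this log2 fold change went from 1.19 to 0.55, and the week 12 activity contrast went from -0.52 to 0.12.

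**Figure D2:**
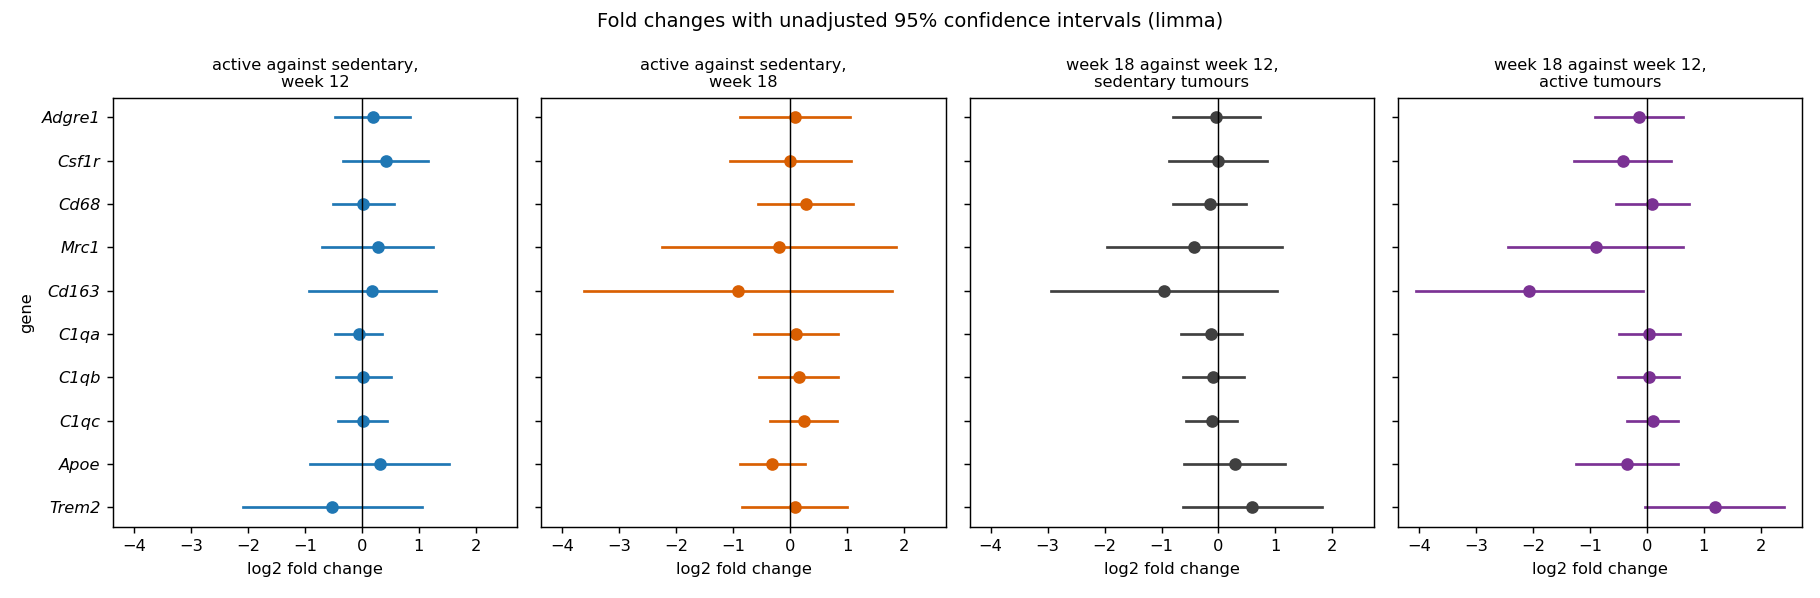
Log2 fold changes (x axis) of the 10 genes (y axis) in 4 comparisons; points are limma estimates and bars unadjusted 95% confidence intervals. All intervals cross 0 except that of Cd163 between weeks in active tumours, -4.05 to -0.07, whose adjusted p was 0.271.

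Set out by comparison, the 10 genes did not move one way. At week 12, 8 of the 10 estimates were above 0, with a median of 0.11, against a median of 0.01 over all genes, of which 51.7% were above 0. At week 18, 6 were above 0, with a median of 0.09 against 0.01. No gene of the 10 had groups without overlap at either week, which 9.13% of all genes had at week 12 and 13.6% at week 18. Between weeks none of the 10 did in sedentary tumours (10.4% of all genes) and 1, Cd163, did in active tumours (24.9%). The smallest adjusted p was 0.970 at week 12 and 0.824 at week 18. The median of the 10 at week 12 ran from -0.01 without sedentary week 12 replicate 1 to 0.27 without active week 12 replicate 2, and was 0.03 without active week 12 replicate 3. At week 18 it was -0.23 without sedentary week 18 replicate 1 and 0.26 without sedentary week 18 replicate 2. The authors' deposited table for each week gave adjusted p-values of 0.829 to 0.997 for the 10 genes, and 204 and 41 genes of all under 0.05 at week 12 and week 18.

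The interaction terms ran from -1.11 for Cd163 to 0.60 for Trem2, with 5 above 0, 5 below and adjusted p of 0.794 to 0.963. Week 18 against week 12 was below 0 for 8 of the 10 genes in sedentary tumours, with a median of -0.10, but above 0 for 10 of 10 without sedentary week 18 replicate 1, with a median of 0.25. In active tumours 5 were above 0 and 5 below, from -2.06 for Cd163 and -0.90 for Mrc1 to 1.19 for Trem2, with C1qa, C1qb and C1qc at 0.04, 0.03 and 0.10. The activity and week comparisons share libraries and are not independent of each other.

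Levels can be compared between genes only per length. As mean normalized counts per kilobase of exon (GENCODE M21), Apoe stood at 14058, C1qa at 3145, C1qb at 2570 and C1qc at 2072, an order that held in 12 of 12 tumours. Next came Cd68 at 559 and Csf1r at 555, with Cd68 above Csf1r in 5 of 12. Adgre1 at 326, Mrc1 at 282, Trem2 at 202 and Cd163 at 158 followed, with each above the next in 9, 10 and 8 of 12 tumours. By group, Cd163 had the higher mean per kilobase at week 12, 189 against 166 for Trem2 in sedentary and 237 against 130 in active tumours. Trem2 had the higher mean at week 18, 241 against 138 in sedentary and 270 against 65.6 in active tumours. All 10 genes together took 0.109% to 0.193% of the reads of sedentary week 12 tumours, 0.123% to 0.274% in active week 12, 0.133% to 0.220% in sedentary week 18 and 0.140% to 0.154% in active week 18, with Apoe the largest part.

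Pooled over the 4 groups, the spread was wide for the scavenger receptors and narrow for C1q. On the log2 scale the pooled standard deviation was 1.18 for Cd163, 0.91 for Mrc1, 0.71 for Trem2, 0.51 for Apoe, 0.49 for Csf1r, 0.44 for Adgre1, 0.35 for Cd68, 0.29 for C1qa and C1qb and 0.23 for C1qc. The median over the 13638 genes whose mean reached 50 was 0.30, and 7 of the 10 genes lay above it. From the lowest to the highest tumour, Cd163 spanned 19.2-fold, Trem2 8.96-fold and Mrc1 6.44-fold, but C1qa, C1qb and C1qc 1.89-, 1.90- and 1.70-fold.

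**Figure D3:**
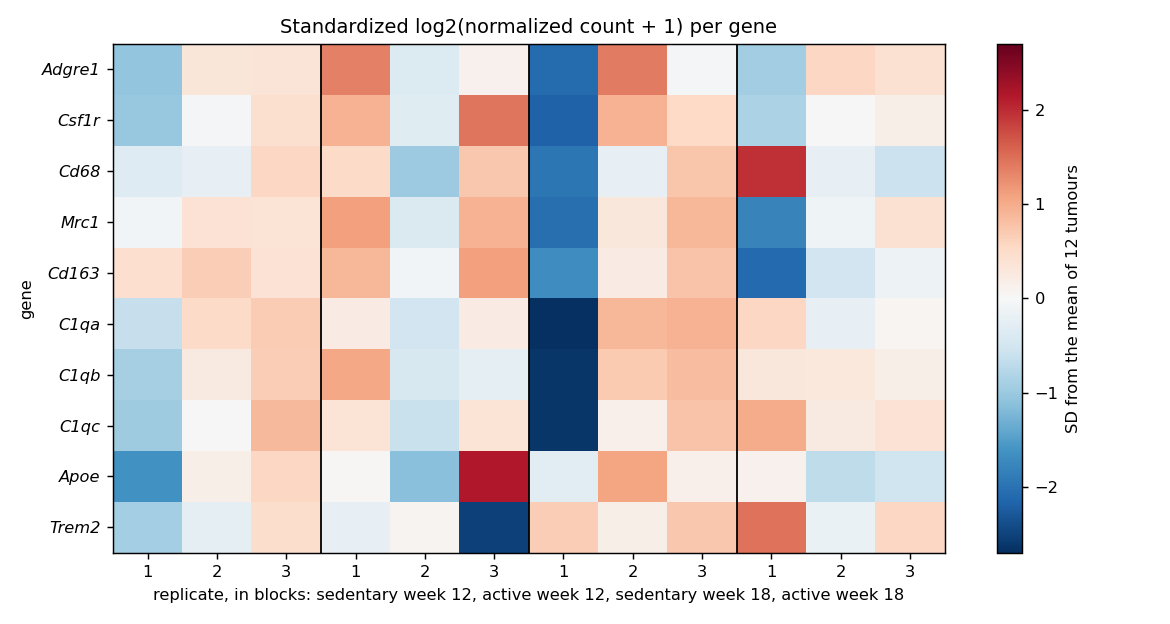
Standardized log2 values (colour, in SD from the mean of 12 tumours) of the 10 genes (y axis) in each tumour (x axis), in blocks of 3 replicates by group. Sedentary week 18 replicate 1 is among the 3 lowest for 8 of the 10 genes, all but Apoe and Trem2, and active week 18 replicate 1 is low for Mrc1 and Cd163 but high for Cd68 and Trem2.

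The extremes fell on few tumours. Averaged over the 10 genes, sedentary week 18 replicate 1 stood 1.75 SD below the mean of the 12 tumours (-1.75), while the others lay between -0.71 and 0.63. It was the lowest for Adgre1, Csf1r, Cd68, Mrc1, C1qa, C1qb and C1qc. Active week 12 replicate 3 was the highest for Csf1r, Cd163 and Apoe and the lowest for Trem2. Active week 18 replicate 1 was the highest for Cd68, C1qc and Trem2 and the lowest for Cd163. 

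**Figure D4:**
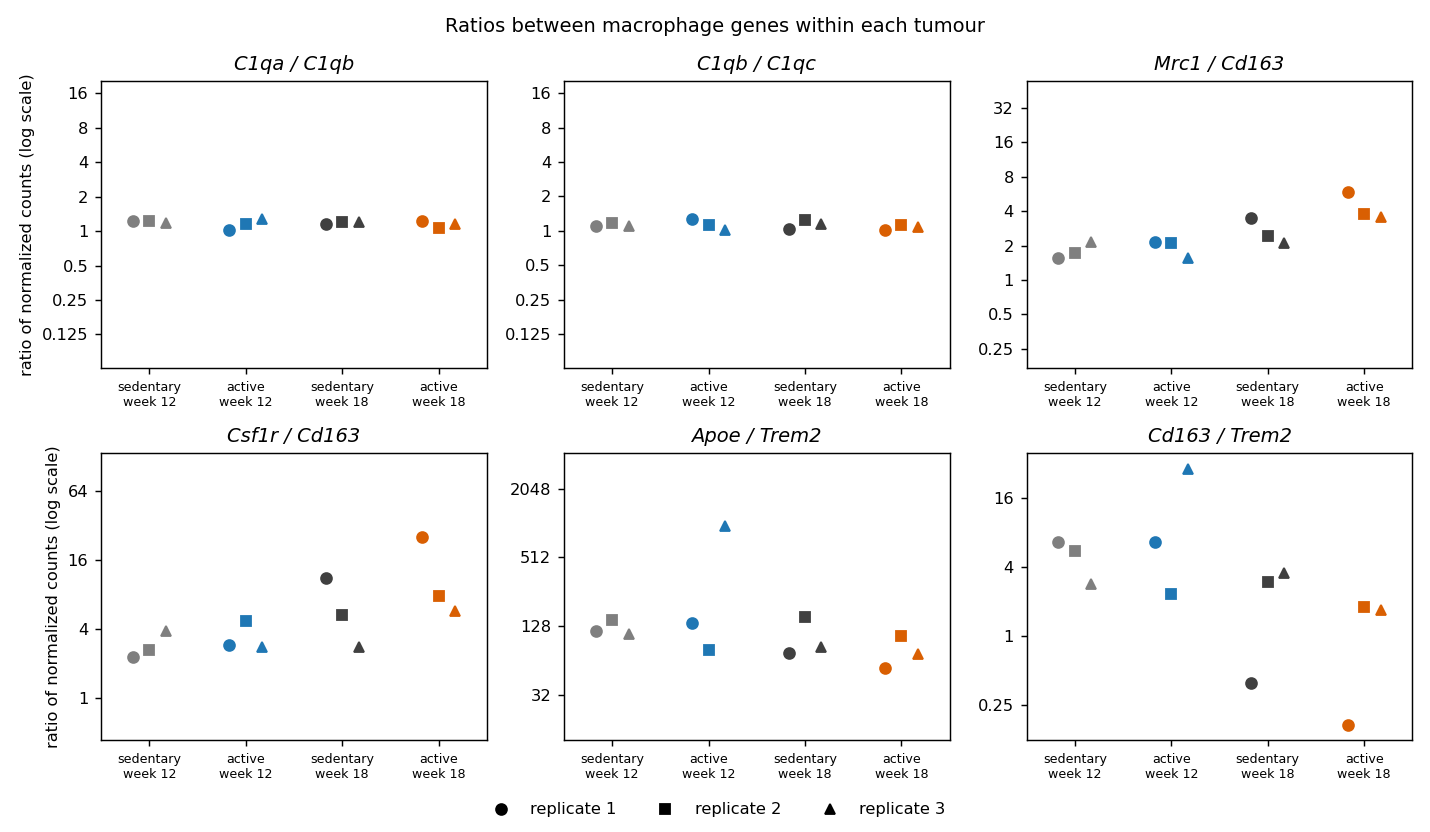
Ratios of normalized counts between pairs of macrophage genes within each tumour (y axis, log scale of equal span in every panel), by group; point shape gives the replicate number. C1qa over C1qb stayed within 1.01 to 1.27, whereas Cd163 over Trem2 ran from 0.167 in active week 18 replicate 1 to 28.9 in active week 12 replicate 3.

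Ratios within a tumour show how far the genes kept step. Of the 45 pairs, the C1q chains were tightest, with a standard deviation of the log2 ratio over 12 tumours of 0.092 for C1qa over C1qb, 0.095 for C1qa over C1qc and 0.10 for C1qb over C1qc. Cd68 over C1qc followed with 0.18, and Adgre1 over Csf1r had 0.23, within 0.257 to 0.460. The widest pair was Cd163 over Trem2 with 1.92. Csf1r over Cd163 ran from 2.30 to 25.7 and Apoe over Trem2 from 55.6 to 968.

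Mrc1 over Cd163 averaged 1.81 ± 0.31 (SD, n = 3) in sedentary and 1.93 ± 0.32 in active week 12 tumours, then 2.66 ± 0.73 in sedentary and 4.43 ± 1.31 in active week 18 tumours. The active week 18 ratios, 3.58 to 5.93, lay above those of every other tumour, of which the highest was 3.48 in sedentary week 18 replicate 1. Relative to the mean of Adgre1, Csf1r and Cd68 on the log2 scale, Cd163 stood at -0.48 ± 0.32 and -0.51 ± 0.54 in sedentary and active week 12 tumours and at -1.37 ± 1.14 and -2.41 ± 1.35 at week 18. These ratios were singled out after their values were seen and carry no test.

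Genes whose pattern was most like the mean of the 10 were sought among 19231 others, by Pearson's r over 12 tumours. Mcub, a mitochondrial calcium uniporter subunit, came first with 0.95, then Ahnak2 with 0.94, Pilrb2 with 0.93, Itgam with 0.93 and Fcgr2b with 0.93. Itgam, the CD11b integrin chain of myeloid cells, ranged from 181 normalized counts in sedentary week 18 replicate 1 to 1429 in active week 12 replicate 1. Fcgr2b, the inhibitory receptor for IgG, ranged from 273 in that same tumour to 1367 in sedentary week 18 replicate 3. All 5 had their lowest value in sedentary week 18 replicate 1, so the likeness rests in part on 1 tumour, and no test is attached to it.

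Ligands, adaptors, regulators and effectors of these genes were followed as a list of 16, and 0 of 16 passed in any comparison. Csf1, a ligand of the CSF1 receptor, had means of 1669 ± 165 and 1879 ± 320 normalized counts (SD, n = 3) in sedentary and active week 12 tumours and of 1477 ± 691 and 1574 ± 88.3 at week 18. Il34, the other ligand, had means of 129 ± 53.1, 212 ± 105, 138 ± 44.7 and 107 ± 51.5 in the same order. The groups of either week overlapped for both ligands. Tyrobp, the adaptor of TREM2, had means of 496 ± 109, 576 ± 141, 509 ± 129 and 526 ± 14, and Spi1, which encodes PU.1, had log2 fold changes of 0.32 and 0.25 for activity at week 12 and week 18. The Spi1 estimates went to -0.13 without active week 12 replicate 3 and to -0.15 without sedentary week 18 replicate 1.

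The liver X receptor Nr1h3 and the cholesterol exporters Abca1 and Abcg1, which pass lipid to apolipoprotein E, had week 12 log2 fold changes of 0.72, 0.69 and 0.82. Their means in active week 12 tumours had wide errors, 638 ± 629, 4173 ± 1941 and 1225 ± 858 (SD, n = 3). Without active week 12 replicate 3 the 3 fold changes were -0.09, 0.33 and 0.29. At week 18 the fold changes were -0.27, 0.08 and 0.05. Irf8, a regulator of the monocyte lineage, reached 3610 in active week 12 replicate 3 and 326 to 776 in the other tumours. Over the 16 genes the median was 0.34 at week 12, with 14 above 0, and -0.17 at week 18, with 7 above 0.

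C1r and C1s are the proteases that C1q activates, and much of their RNA in tissue comes from cells other than macrophages. C1s1 gave 3243, 887 and 5881 normalized counts in active week 12 tumours and 281, 748 and 779 in active week 18 tumours, a log2 fold change of -2.23 that did not pass (adjusted p = 0.219, limma). Its active groups did not overlap, with week 18 lower, as for 12.7% of all genes. C1qa, C1qb and C1qc differed between the same groups by 0.10 at most on the log2 scale. C1ra had a log2 fold change of -1.90 (adjusted p = 0.263). The median of the 16 in this comparison was -0.61, against -0.05 for the 10 macrophage genes. Hmox1, which degrades the haem taken up through CD163, had a mean of 618 ± 222 in active week 12 and of 1000 ± 543 in active week 18 tumours. The groups overlapped, with 599, 405 and 849 at week 12 and 1603, 551 and 846 at week 18, where replicate 1 was the highest.

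Other macrophage lists gave no call in any comparison either. Of 16 further surface and scavenger genes, Msr1, the class A scavenger receptor, had the smallest p of its list for activity at both weeks. Its log2 fold change was 0.66 at week 12 (adjusted p = 0.970) and 1.32 at week 18 (adjusted p = 0.824) in limma. At week 18 its groups did not overlap, as for 13.6% of all genes. It had 73.7 to 170 normalized counts in sedentary and 221 to 479 in active tumours of that week. Of 12 genes typical of resident macrophages, 9 were below 0 and 3 above 0 between weeks in active tumours, with a median of -1.53. Summed over the 12, the active groups overlapped, at 9172 to 20584 normalized counts at week 12 and 10932 to 14847 at week 18. The genes named next are all among those below 0. Cd209f had the smallest p of the list, with -2.34 (adjusted p = 0.250), and Cd209g, Clec10a, Lyve1 and Folr2 had -2.64, -2.41, -2.17 and -1.27. Without active week 18 replicate 1 the estimates of Cd209f, Clec10a and Lyve1 were -1.34, -1.43 and -0.97. In the same comparison the pan-macrophage genes Csf1r, Adgre1 and Cd68 were at -0.43, -0.14 and 0.10.

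The 13 lipid-associated genes include lysosomal and lipid-droplet genes that tumour cells and adipocytes also express. Of the 13, Spp1 had a week 12 log2 fold change of -1.51 for activity (adjusted p = 0.802, limma). Its groups did not overlap at that week, as for 9.13% of all genes. Spp1 means were 17083 ± 3288 in sedentary and 6479 ± 3161 in active tumours (SD, n = 3), and at week 18 its log2 fold change was 1.54, with groups that overlapped, and 0.30 without sedentary week 18 replicate 1. Cd36 had a log2 fold change of -4.33 between weeks in active tumours (adjusted p = 0.192, limma), with a mean of 12581 ± 15081 at week 12. In replicates 1, 2 and 3 of active week 12 the adipocyte markers summed to 57451, 9940 and 232367. They summed to 18052 to 26065 in sedentary week 12 tumours. Of 10 monocyte genes, Ly6c2 had the smallest p between weeks in active tumours, with -2.92 (adjusted p = 0.264, limma), and -1.80 without active week 12 replicate 3.

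Markers of lymph node sinus macrophages were highest in the library with the most lymphocyte RNA. The 5 sinus macrophage genes summed to 6774 normalized counts in active week 12 replicate 3, against 552 to 1605 elsewhere. Cd209b, which marks such cells, had a mean of 949 ± 1514 (SD, n = 3) in active week 12 tumours and 88.3 ± 18.3 in sedentary ones. The 9 dendritic cell markers summed to 4614 in that library and to 623 to 1678 elsewhere. It was also the library with the highest Csf1r, Cd163 and Apoe, and the part of lymph node or fat tissue in these values was not tested. Without it, week 12 estimates were 0.24 for Csf1r, -0.12 for Cd163 and -0.11 for Apoe, and 0 of the 10 genes passed.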

How the data were processed

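Per the labels' protocols, RNA of mammary tumours was extracted with TRIzol and sequenced after a stranded mRNA preparation. The submitters' processing notes name the build mm10, and the label descriptions name DEBrowser. The aligner, the counter and the annotation are not given in the sources used here. The authors deposited a normalized signal per gene and library, a count divided by 1 size factor per library. Divided by what 1 read was worth, 100% of the values gave whole reads, within a tolerance of 0.001. In sedentary week 18 replicate 3, 1 read was worth 0.991, close to 1, so whole values there are a weaker check. Both tumour tables were on 1 scale, the median of ratios over all 12 tumours, so weeks were compared on the deposited values. The authors also deposited a log2 fold change and an adjusted p-value per gene. The hematopoietic stem cell tables were not used here.

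Tests used limma 3.58.1 in R 4.3.3 (lmFit, eBayes) on log2(value + 1), for genes whose mean reached 1 in either group, with Benjamini-Hochberg adjustment over all genes and a threshold of 0.05. Activity was tested on the 6 libraries of each week, and weeks and the interaction on a group-means model of all 12. Alternatives were edgeR 4.0.16 (quasi-likelihood, TMM or RLE) and DESeq2 1.42.0 on recovered reads, limma-voom, scaling to total reads, pseudocounts of 0.1 and 5, no filter, a filter at a mean of 10, trend and robust options, the replicate block, each library left out, 1 fit of all tumours for activity and, chosen after seeing the data, fits of 6 libraries for the weeks. On recovered reads edgeR called 0 of the 10 genes in every comparison, and DESeq2 0. Scripts were tested on simulated data. Intervals of folds are 95%.

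The 10 genes and 15 other lists, which hold 141 further genes, were chosen from general knowledge of markers with earlier results of these data known. Genes named are the 10, the 16 partners, the smallest p of other lists and the 5 most similar patterns; others named were chosen after their values were seen. Lengths and gene positions are from GENCODE M21 (GRCm38), and promoters from RefSeq. The replicate numbers of the labels were checked by correlating deviations from group means of same-numbered libraries. At week 18 the correlations were 0.164, 0.159 and 0.139, so same-numbered libraries deviated together weakly there. The labels do not say that the numbers pair the samples, and libraries of unlike number were not correlated. Whether the samples were paired is therefore not known. At week 12 they were -0.033, -0.095 and 0.092.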

Additional observations from a re-analysis of the deposited data

How the results depend on the processing

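Of the 10 genes, 0 passed the threshold in any of the 5 comparisons, with limma as reported and under each alternative run, edgeR, DESeq2 and limma-voom included. The smallest adjusted p was 0.0895, for Cd163 between weeks in active tumours with DESeq2. Of 950 estimates recomputed for the 10 genes, 71 had the opposite sign, 59 of them with 1 library left out, and 3 moved by more than the spread within groups. These 3 were C1qa without sedentary week 18 replicate 1, at -0.20 for activity at week 18, -0.14 for the interaction and 0.18 between weeks in sedentary tumours. The cause was not tested. Leaving out a library moved the median of the 10 genes within -0.31 to 0.24 for the interaction and -0.18 to 0.06 between weeks in active tumours.

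With the replicate number as a block, 0 of the 10 genes passed in every comparison, so the block changed no call among them. For activity at week 18 the block took Cd163 from an unadjusted p of 0.431 to 0.0147 in limma. In that fit 7.41% of all genes had an unadjusted p under 0.05. Over all genes, the block took the week 12 calls from 99 to 0 and those between weeks in active tumours from 3 to 0. Other counts over all genes also depended on the test. DESeq2 called 208 at week 12, 52 at week 18, 174 for the interaction, 81 between weeks in sedentary and 1683 in active tumours, against 99, 0, 2, 1 and 3 in limma. The week 12 count was 56 with limma-voom, 9 in the fit of all 12 tumours and 9 to 71 with 1 library left out. In active tumours between weeks it was 0 to 91 with 1 library left out, 91 being without active week 12 replicate 2. With 3 libraries a group, the 95% intervals of the week 18 activity folds ran from 0.0810 to 3.45 for Cd163 and from 0.211 to 3.64 for Mrc1.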
